A study of Homo sapiens with 2 samples.

Results

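Molecular chaperones bind unfolded or partly folded proteins and help them to reach or keep their native shape. The genes examined here were chosen by symbol. They carry names of the HSPA, HSPB, HSPD, HSPE, HSPH or HSP90A type, of DNAJA, DNAJB or DNAJC, or of CCT followed by a digit, and names that end in P and digits, the usual form of a pseudogene name, were left out. In all, 81 of the 18781 genes in the deposited table were chosen in this way. They fall into 12 HSPA genes, 7 HSP90 genes, 1 HSPH gene, 5 HSPB genes, 1 HSPD gene, 2 HSPE genes, 4 DNAJA genes, 10 DNAJB genes, 30 DNAJC genes and 9 CCT genes. Of the 81, 5 are HSP90 pseudogenes whose names end in P alone, 3 are readthrough transcripts, 3 are antisense RNAs and the other 70 are none of these. By name alone all 81 are called chaperone genes below, although HSPB11, for one, is a subunit of the transport machinery in cilia.

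RNA was measured in 2 precipitates from T47D cells, a luminal breast cancer line grown with serum. One lysate sample was incubated with beads carrying an antibody against IMP1, an RNA-binding protein, and the other with beads carrying normal IgG. The cells are wild type in both, and each condition has 1 library. No input library was analysed here. A difference between the precipitates therefore has no replicate check, and no test was run. The comparison asks which RNAs stay with the IMP1 antibody rather than with control IgG.

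Chaperones work in relays. HSP70 proteins (the HSPA genes) bind short greasy stretches of a client protein and release them in a cycle of ATP hydrolysis, which J-domain proteins (DNAJ genes) start and nucleotide exchange factors reset. HSP90 takes over late folding steps of clients such as steroid receptors and kinases, small heat shock proteins (HSPB) hold unfolded proteins without ATP, and the barrel-shaped chaperonins, HSPD1 with its lid HSPE1 in mitochondria and the CCT ring in the cytosol, enclose a client while it folds. Part of these genes is switched on by heat through heat shock factor 1, and part is always expressed. IMP1 is best known for binding mRNAs such as that of beta-actin and for moving and stabilising them.

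Values are FPKM, fragments scaled by transcript length and by library size, so they allow levels of different genes to be set side by side. The ratio used throughout sets (FPKM + 0.1) with the IMP1 antibody over (FPKM + 0.1) with IgG on the log2 scale, which understates the change of low genes. Read counts were not used and the depth is unknown. The scale of the libraries differed, since the FPKM summed to 353885 with the IMP1 antibody and to 1298360 with IgG. Genes at 1 FPKM or more in both had a median log2 ratio of -0.78, and setting their median ratio to 1 raises the IMP1 values by 0.79 on the log2 scale. All 10 luminal breast markers, among them ESR1 and GATA3, were present in each library, with a range of 9.60 to 371 FPKM with the IMP1 antibody and 9.04 to 226 FPKM with IgG. They were not at equal levels, with sums of 1244 and 571 FPKM and a median log2 ratio of 0.84. Of the 10, 5 were at least 2-fold higher and 0 lower, beside 11.5% and 44.0% of genes at 1 FPKM or more in both. The 9 mesenchymal markers were at 2.96 to 79.7 FPKM with IgG, while 5 of them were listed at 0 and 1 was above 1 FPKM in the IMP1 library. Their summed level was 2.61 FPKM with the IMP1 antibody and 229 FPKM with IgG. Of the 5 blood cell markers 2 are in the table, and CD74 had 6.42 and 305 FPKM and HLA-DRA was listed at 0 and had 17.4 FPKM. The part of other cells' RNA in the differences given here was not tested.

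In the IMP1 precipitate 79 of the 81 genes were above 0, and with IgG 62 were. The 18 genes listed at 0 with IgG alone had 0.0434 to 5.02 FPKM with the IMP1 antibody, with 14 of them under 1 FPKM. HSP90AA6P was listed at 0 with the IMP1 antibody alone. In the IgG library 23.5% of the chaperone genes and 39.9% of all genes were listed at 0. The chaperone genes split in both directions between the precipitates. Of the 81 genes, 20 (24.7%) were at least 2-fold higher with the IMP1 antibody than with IgG, against 39.9% of all genes in the table, and 33 (40.7%) were at least 2-fold lower, against 29.9% of all genes. Of the 20 higher genes, 12 were listed at 0 with IgG. The median log2 ratio of the 81 genes was -0.45 and that of all genes was 0.40. Among the 52 chaperone genes at 1 FPKM or more in both precipitates, 8 (15.4%) were at least 2-fold higher, where 11.5% of all such genes were, and 24 (46.2%) were at least 2-fold lower, where 44.0% were. Their median log2 ratio was -0.88. The shares of the 52 genes were therefore near those of all genes at such levels. At 10 FPKM or more in both precipitates, 0 of 20 chaperone genes were at least 2-fold higher and 8 were lower, beside 9.58% and 31.6% of all genes there.

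The counts depend on how the libraries are scaled. After rescaling to the median gene, 32 chaperone genes were at least 2-fold higher (49.3% of all genes) and 20 were lower (21.3% of all genes), so that the larger group changed sides. The 20 genes above stayed at least 2-fold higher on each of the 4 scales tried, because every rescaling raises the IMP1 values. A set of 13 genes was at least 2-fold lower on all 4 scales, the most extreme of which equalises the FPKM sums and leaves 13.0% of all genes lower. These were HSPA9, HSPA4L, HSPH1, DNAJB4, DNAJB5, DNAJC2, DNAJC10, DNAJC13, DNAJC18, DNAJC25, the readthrough transcripts HSPE1-MOB4 and DNAJC25-GNG10 and the pseudogene HSP90AA6P. HSP90AA6P is listed at 0 with the IMP1 antibody, so that rescaling could not move it.

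**Figure D1:**
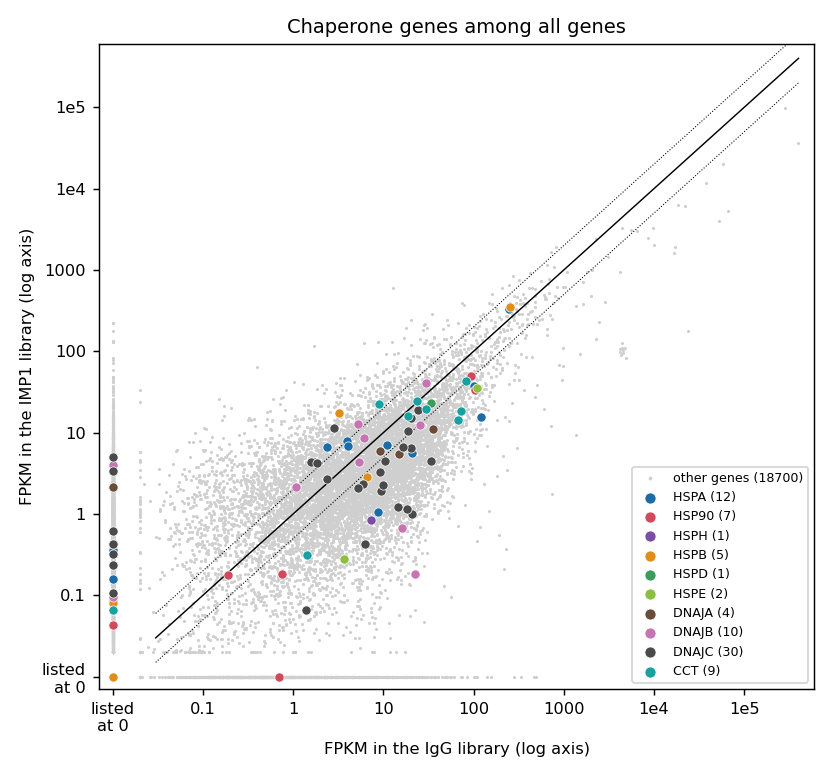
Each point is a gene, with its FPKM in the IgG library on the x axis and in the IMP1 library on the y axis (log axes, values under 0.02 drawn at 0.02, genes listed at 0 drawn at the margin). Colours mark the chaperone families, grey the 18700 other genes, the solid line equal values and the dotted lines a 2-fold difference. The chaperone genes lie within the cloud of other genes, and HSPA8 and HSPB1 are the highest of them in both libraries.

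The HSPA family holds the most abundant chaperone mRNA besides HSPB1. HSPA8 (chr11:122928197-122933938 in hg19), which encodes the constitutive cytosolic HSC70, had 332 FPKM with the IMP1 antibody and 248 FPKM with IgG (log2 ratio 0.42, or 1.22 relative to the median gene). It ranked 80 and 143 among all genes of the respective libraries. HSPA5, the HSP70 of the endoplasmic reticulum also called BiP, had 37.97 FPKM with the IMP1 antibody and 102 FPKM with IgG (log2 ratio -1.42). HSPA9, the HSP70 of the mitochondrial matrix (mortalin), had 15.5 and 122 FPKM, so that its plain FPKM was 7.89-fold lower with the IMP1 antibody. The order of the organelle forms thus differed between the precipitates, with HSPA5 above HSPA9 in the IMP1 library and HSPA9 above HSPA5 in the IgG library. HSPA8 stood at 21.4 times the level of HSPA9 in the IMP1 library and at 2.03 times in the IgG library, a comparison that no rescaling of a library changes. HSPA9 was at least 2-fold lower on every scale, with a log2 ratio of -1.10 even when the FPKM sums were made equal, whereas HSPA5 went from -1.42 to 0.45 on that scale.

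The heat-inducible pair HSPA1A and HSPA1B was low in both libraries. HSPA1A had 7.96 FPKM with the IMP1 antibody and 3.98 FPKM with IgG, and HSPA1B had 6.95 and 4.02 FPKM. These genes encode nearly the same mRNA on chromosome 6, and reads can be split between them in ways the sources used here do not give, so their sum is the safer value. The sum was 14.9 and 8.004 FPKM, and HSPA8 stood at 22.3 times that sum in the IMP1 library and 30.9 times in the IgG library. HSPA1L, a testis-enriched relative that shares the HSPA1A locus (chr6:31777396-31785723 in hg19), had 0.0866 FPKM with the IMP1 antibody and was listed at 0 with IgG. HSPA14, a ribosome-associated HSP70, was the HSPA gene with the largest ratio among those at 1 FPKM or more in both, with 6.73 and 2.36 FPKM. HSPA13, another HSP70 of the endoplasmic reticulum, had 6.97 and 10.9 FPKM. HSPA2 (0.359 FPKM) and HSPA12A (0.158 FPKM) were near the lower end in the IMP1 library and listed at 0 with IgG.

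The HSP110 proteins, large HSP70 relatives that act as nucleotide exchange factors, were lower with the IMP1 antibody as a group of 3, a grouping made after their values were seen. HSPA4 had 5.66 FPKM with the IMP1 antibody and 20.8 FPKM with IgG. HSPA4L had 1.05 and 8.77 FPKM and HSPH1 had 0.833 and 7.36 FPKM, and both stand in the list of heat-inducible genes used below. The log2 ratios of the 3, in the order named, were -1.86, -2.94 and -3.00. HSPA4L and HSPH1 were also lower by more than 2-fold on each rescaled comparison, whereas HSPA4 was at -1.07 relative to the median gene and did not stay so when the sums were equalised. Over all 12 HSPA genes the median log2 ratio was 0.60, but among the 9 at 1 FPKM or more in both precipitates it was -0.63, because the 3 others were listed at 0 with IgG. Over all 12 the median was above 0 on each rescaled comparison, at 1.27 relative to the median gene. HSPA13, the middle gene of the 9, was at 0.15 relative to the median gene and at 1.23 with equal sums. It was at -0.10 on the scale of the sum without the 50 highest genes.

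HSP90 is encoded by a heat-inducible and a constitutive cytosolic gene. HSP90AA1, the inducible form, had 33.3 FPKM with the IMP1 antibody and 103 FPKM with IgG. Its log2 ratio of -1.63 was -0.83 relative to the median gene and turned to 0.24 with equal sums. HSP90AB1, the constitutive form, had 49.8 and 94.2 FPKM, a log2 ratio of -0.92. HSP90AB1 was the higher of the pair in the IMP1 library, with HSP90AA1 at 0.669 of its level, and HSP90AA1 was the higher in the IgG library, at 1.10 of the level of HSP90AB1. The 5 HSP90 pseudogenes were under 1 FPKM in both libraries. The highest of them, HSP90AB2P, had 0.181 FPKM with the IMP1 antibody and 0.755 FPKM with IgG. The organelle forms of HSP90 lie outside the naming rule and were taken from a list of related genes. HSP90B1, the form of the endoplasmic reticulum (GRP94), had 15.8 FPKM with the IMP1 antibody and 86.2 FPKM with IgG. TRAP1, the mitochondrial form, had 14.2 and 38.1 FPKM.

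Heat shock factor 1 binds a heat shock element, made of 5-base units in alternating directions, in the promoters of the genes it switches on. The RefSeq promoters of assembly GRCh38.p14, which run from 250 bases before to 50 after a gene's start, were searched on both strands for 3 such units end to end, where a unit is NGAAN or, in the other direction, NTTCN, and overlapping matches were joined. Matched by symbol, 68 of the 81 genes had at least 1 promoter there, with 90 promoters in all. Of these 90 promoters 6 (6.67%) held the perfect run, each from a different gene, while 0.490% of the 35116 promoters of all genes did. The genes were HSPA8, HSP90AA1, HSP90AB1, HSPD1, DNAJA1 and DNAJB6. In the lists by role HSPA8, HSP90AA1 and HSPD1 stand among the heat-inducible genes and HSP90AB1, DNAJA1 and DNAJB6 among the constitutive cytosolic ones. HSPA8 was so listed although it encodes the constitutive HSC70. The stretches before the start are shown because they are the perfect matches to the element in these genes. Capitals mark the units without the flanking N of the first and last unit, and all are written 5′ to 3′ on the strand of the gene.
HSPA8, 55 bases before the start (chr11:123062173-123062197, minus strand): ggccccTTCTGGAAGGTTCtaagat
HSPA8, 230 bases before the start (chr11:123062348-123062372, minus strand): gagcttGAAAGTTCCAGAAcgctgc
HSP90AA1, 88 bases before the start (chr14:102087114-102087138, minus strand): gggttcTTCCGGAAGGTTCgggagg
HSP90AB1, 112 bases before the start (chr6:44247825-44247849, plus strand): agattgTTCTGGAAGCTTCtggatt
HSP90AB1, 165 bases before the start (chr6:44247772-44247796, plus strand): agcaggTTCTGGAAGATTCatgggc
HSPD1, 245 bases before the start (chr2:197500062-197500090, minus strand): gcattTTCTGGAAAGTTCTGGAAccgagc
DNAJB6, 131 bases before the start (chr7:157336867-157336891, plus strand): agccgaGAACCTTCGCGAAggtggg

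The stretch of HSPD1 holds 4 units, so that 2 overlapping runs of 3 match there. In DNAJA1 the run begins at base 4 after the start. These 6 genes differed among themselves in the comparison of the precipitates. The log2 ratio was 0.42 for HSPA8, -0.55 for HSPD1, -0.92 for HSP90AB1, -1.02 for DNAJB6, -1.63 for HSP90AA1 and -1.67 for DNAJA1. A promoter without the perfect run may still hold a shorter or imperfect element, and the search says nothing about binding in these cells.

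The promoter of HSPA5 was the only one of the 90 with a perfect ER stress element on either strand. This element is CCAAT followed at a distance of 9 bases by CCACG, which 0.0769% of all promoters held. Only exact matches were counted, so the other promoters may still hold an imperfect element. The stretch of HSPA5 is shown because this element marks the unfolded protein response, of which HSPA5 is the best known target.
HSPA5, 66 bases before the start (chr9:125241385-125241415, minus strand, GRCh38.p14): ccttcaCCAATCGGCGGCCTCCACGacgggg

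Among the small heat shock proteins 1 gene dominated. HSPB1 (HSP27, chr7:75931861-75933612 in hg19), an estrogen-responsive chaperone that is abundant in luminal breast cancer cells, had 349 FPKM with the IMP1 antibody and 250.3 FPKM with IgG (log2 ratio 0.48, or 1.27 relative to the median gene). It ranked 76 and 140 in the respective libraries, just above HSPA8 in each. HSPA8 and HSPB1 together made up 681 of the 1322 FPKM summed over all chaperone genes in the IMP1 library and 498 of 1869 FPKM in the IgG library. HSPB11, which despite its name is a subunit of the transport machinery in cilia (IFT25), had 17.2 and 3.23 FPKM, a log2 ratio of 2.38 and the largest of any chaperone gene with at least 1 FPKM in both libraries. HSPB8, which works with BAG3 in autophagy of misfolded proteins, had 2.88 and 6.67 FPKM. HSPB6, a muscle chaperone, had 0.0795 FPKM with the IMP1 antibody and was listed at 0 with IgG, and the readthrough HSPB2-C11orf52 was listed at 0 in both. CRYAB, a small heat shock protein named as a crystallin, had 0.764 FPKM with the IMP1 antibody and 11.3 FPKM with IgG, and CRYAA was listed at 0 and at 0.319 FPKM. The mesenchymal markers given above differed between the libraries in the same direction as CRYAB, and their part in its value was not tested. The median log2 ratio of the 5 HSPB genes was 0.48, and it stayed above 0 on every scale and filter tried. On the deposited scale and under the filters this median is the ratio of HSPB1 itself, so it describes that gene rather than the family.

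**Figure D2:**
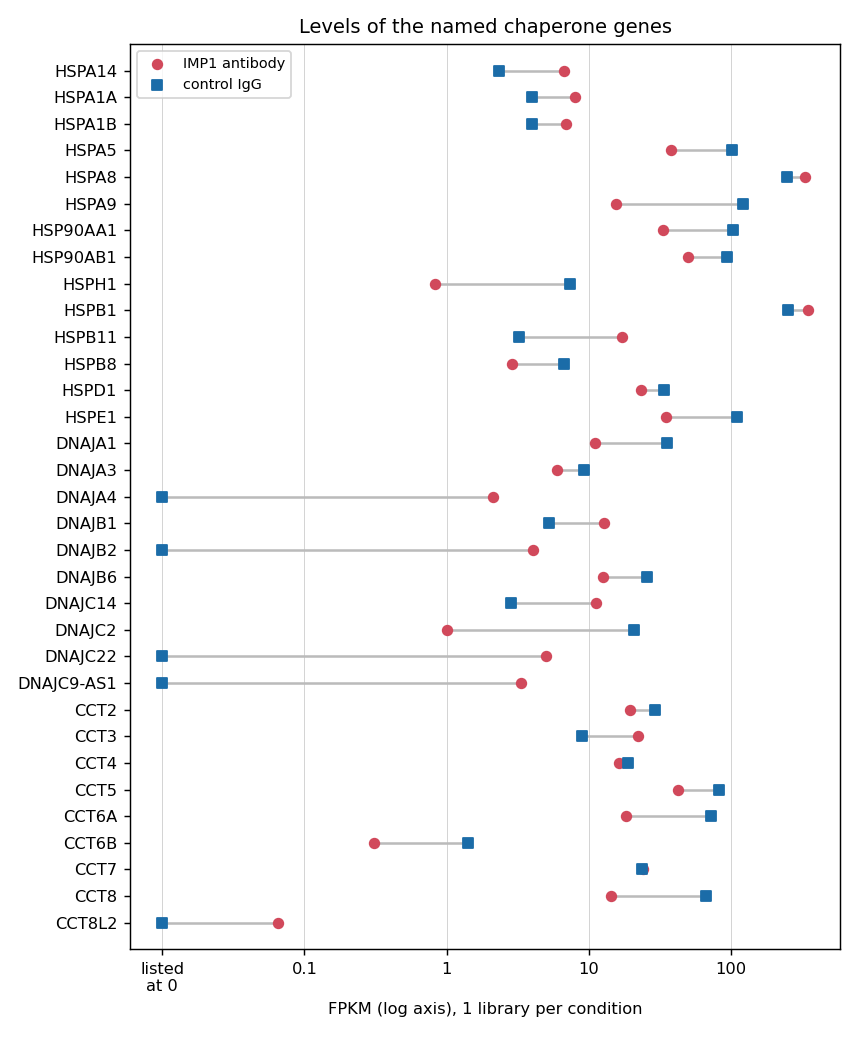
FPKM (log axis) of the 33 chaperone genes named by a set rule, with the IMP1 antibody as red circles, control IgG as blue squares and genes listed at 0 at the left margin, 1 library per condition. HSPA8 and HSPB1 are at 248 FPKM or more in both libraries, and the widest gap among genes above 0 in both is that of DNAJC2, at 1.002 and 20.96 FPKM.

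HSPD1 (HSP60) and HSPE1 (HSP10) form the mitochondrial chaperonin and its lid and are transcribed in opposite directions from a shared promoter. In the deposited table both carry the locus chr2:198351305-198418423 of hg19, which is shared by 4 genes of the table. HSPD1 had 23.2 FPKM with the IMP1 antibody and 33.9 FPKM with IgG (log2 ratio -0.55). HSPE1 had 35.1 and 110 FPKM, a log2 ratio of -1.64. HSPE1 was above HSPD1 in both libraries, by 1.51 times in the IMP1 library and by 3.24 times in the IgG library. HSPE1-MOB4, a readthrough of HSPE1 into its neighbour, had 0.283 and 3.68 FPKM, and reads of the shared exons can be assigned to either.

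CCT, also called TRiC, is a ring of 8 different subunits that folds actin and tubulin, and each ring holds 1 copy of every subunit. Of these subunits 7 carry CCT names and TCP1, the first to be named, was taken from the list of related genes. CCT5 was the highest subunit in both libraries, with 42.7 FPKM with the IMP1 antibody and 82.9 FPKM with IgG. In the IMP1 precipitate the 8 mRNAs lay between 14.1 and 42.7 FPKM, a spread of 3.04 times, and with IgG between 9.02 and 82.9 FPKM, a spread of 9.19 times. The wider spread with IgG came from both ends. CCT3 was the lowest subunit there, with 22.3 FPKM with the IMP1 antibody and 9.02 FPKM with IgG, and it was the CCT gene that was at least 2-fold higher, with a log2 ratio of 1.30. CCT6A had 18.4 and 72.4 FPKM and CCT8 had 14.4 and 67.2 FPKM, with log2 ratios of -1.97 and -2.22. Subunits close to equal in both libraries were CCT7, with 24.2 and 23.6 FPKM, TCP1, with 14.1 and 15.1 FPKM, and CCT4, with 16.2 and 18.8 FPKM. CCT2 had 19.6 and 29.3 FPKM. The ratios of the 8 subunits therefore ran from -2.22 to 1.30, and no single scale factor for a library brings them together. CCT6B, a testis form of the zeta subunit, had 0.310 and 1.42 FPKM, and CCT8L2, a relative of CCT8, had 0.0653 FPKM and was listed at 0 with IgG. The median log2 ratio of the 9 CCT genes was -0.58, and it was 0.21 relative to the median gene and 1.29 with equal sums.

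**Figure D3:**
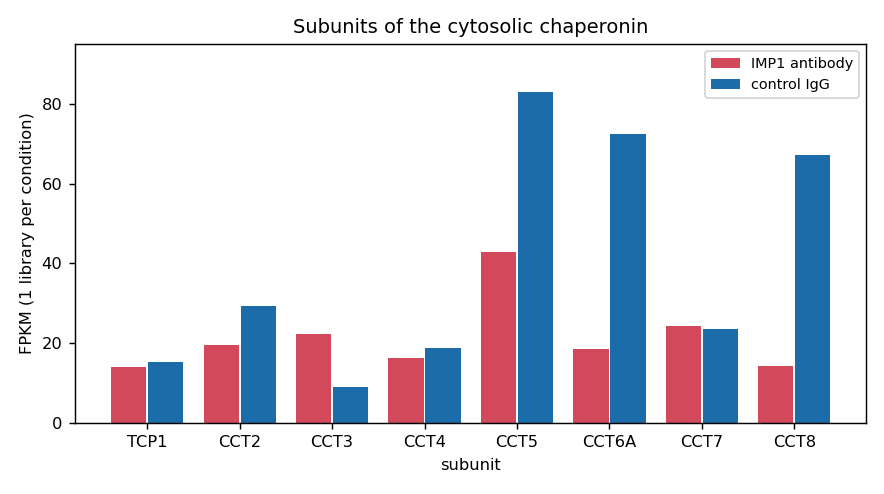
FPKM of the 8 subunits of the cytosolic chaperonin, as bars from 0 for the IMP1 antibody (red) and control IgG (blue), 1 library per condition. The subunits range from 14.1 to 42.7 FPKM in the IMP1 library and from 9.02 to 82.9 FPKM in the IgG library, and CCT3 alone is more than 2-fold higher with the IMP1 antibody.

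DNAJ names made up 44 of the 81 genes, of which 40 encode J-domain proteins, 3 are antisense RNAs and 1 is a readthrough transcript. Of the 40 genes of J-domain proteins, 12 were at least 2-fold higher and 18 at least 2-fold lower, beside 39.9% and 29.9% of all genes. The DNAJA genes, which act with HSP70 as general folding partners, had a median log2 ratio of -1.03, which was -0.25 relative to the median gene and turned to 0.82 with equal sums. DNAJA1 had 11.1 FPKM with the IMP1 antibody and 35.7 FPKM with IgG. DNAJA2, a close relative of DNAJA1, had 5.41 and 14.8 FPKM, and DNAJA3, the mitochondrial member, had 5.95 and 9.24 FPKM. DNAJA4, by contrast, had 2.14 FPKM with the IMP1 antibody and was listed at 0 with IgG.

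The DNAJB genes held both the most extreme lower value of all chaperone genes and several higher ones. DNAJB1 (HSP40), the heat-inducible partner of HSP70, had 12.7 FPKM with the IMP1 antibody and 5.23 FPKM with IgG (log2 ratio 1.27). DNAJB11, a BiP partner in the endoplasmic reticulum, was the highest DNAJ gene in the IMP1 library, with 40.6 and 30.0 FPKM. DNAJB9, another BiP partner, had 8.49 and 6.09 FPKM. DNAJB6, which keeps aggregation-prone proteins soluble, had 12.6 and 25.6 FPKM, just past 2-fold lower. DNAJB2, whose best known forms act in neurons, had 4.03 FPKM with the IMP1 antibody and was listed at 0 with IgG. DNAJB4 and DNAJB5, close relatives of DNAJB1 that were singled out here after their values were seen, went the other way. DNAJB4 had 0.184 FPKM with the IMP1 antibody and 22.6 FPKM with IgG (log2 ratio -6.32), and DNAJB5 had 0.673 and 16.1 FPKM, a log2 ratio of -4.39. Both stayed at least 2-fold lower on every scale. All 9 mesenchymal markers lay on the same side, with a median log2 ratio of -5.83, and their part in these values was not tested. DNAJB12 (4.40 and 5.34 FPKM) and DNAJB14 (2.16 and 1.07 FPKM), both of the membrane of the endoplasmic reticulum, were within 2-fold. DNAJB14 was so only with the added 0.1, since its plain FPKM was 2.02 times as high with the IMP1 antibody and it passed 2-fold with a pseudocount of 0.01. DNAJB7 had 0.0945 FPKM and was listed at 0. The median log2 ratio of the 10 DNAJB genes was 0.45, and it stayed above 0 on every scale and filter tried, with 0.08 among genes above 0 in both libraries.

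The DNAJC proteins share only the J domain and serve many tasks. Of the 26 genes that encode them, 9 were at least 2-fold higher, 13 at least 2-fold lower and 4 within 2-fold, beside 39.9% higher and 29.9% lower among all genes. At 1 FPKM or more in both precipitates 4 of 20 were higher and 12 lower, beside 11.5% and 44.0% of all genes there. With the antisense RNAs DNAJC3-AS1, DNAJC9-AS1 and DNAJC27-AS1 and the readthrough DNAJC25-GNG10, 12 of 30 DNAJC names were higher and 14 lower. Of these 12, 8 were listed at 0 with IgG. DNAJC22 was the highest of these, at 5.02 FPKM in the IMP1 library, and DNAJC9-AS1, an antisense RNA, followed with 3.34 FPKM. The other 6 were under 1 FPKM there, with DNAJC6 at 0.612 FPKM the highest of them and DNAJC12, DNAJC27, DNAJC28, DNAJC3-AS1 and DNAJC27-AS1 between 0.106 and 0.428 FPKM. The 4 higher genes with a value in both libraries were DNAJC14, DNAJC5, DNAJC30 and DNAJC9. DNAJC14, a J protein of the endoplasmic reticulum membrane, had 11.3 and 2.83 FPKM, a log2 ratio of 1.95. DNAJC5, the cysteine string protein of synaptic vesicles, had 4.36 and 1.56 FPKM, and DNAJC30, of the mitochondrial inner membrane, had 4.40 and 1.69 FPKM. DNAJC9, a histone chaperone, had 4.23 and 1.83 FPKM. It shares its locus with DNAJC9-AS1, and whether the counting used strand is not given in the sources used here, so reads of the pair cannot be told apart.

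The lower DNAJC genes were well above 0 in the IgG library. DNAJC2, which sits on the ribosome as part of the ribosome-associated complex, had 1.002 FPKM with the IMP1 antibody and 20.96 FPKM with IgG, and its log2 ratio of -4.26 was the smallest of the DNAJC genes. DNAJC10 (ERdj5), a reductase that breaks disulfide bonds in the endoplasmic reticulum, had 4.49 and 34.1 FPKM. DNAJC13, which acts in sorting at endosomes, had 1.23 and 14.4 FPKM, and DNAJC25 had 1.16 and 18.3 FPKM. Its readthrough DNAJC25-GNG10, with the same locus, had 0.432 and 6.22 FPKM. DNAJC18 had 0.0664 and 1.37 FPKM. These 6 transcripts stayed at least 2-fold lower on each scale. Another 8 were lower on the deposited scale. Among them DNAJC21, involved in ribosome production, had 2.29 and 9.84 FPKM, DNAJC11 of the mitochondria had 1.89 and 9.45 FPKM, and DNAJC17, found with the spliceosome, had 6.401 and 20.3 FPKM. The remaining 5, DNAJC1, DNAJC3, DNAJC7, DNAJC15 and DNAJC16, had log2 ratios between -1.46 and -1.19. Within 2-fold were DNAJC4 (15.0 and 20.5 FPKM), DNAJC8 (10.5 and 18.9 FPKM), DNAJC19 (18.9 and 23.98 FPKM) and DNAJC24 (2.72 and 2.37 FPKM). The median log2 ratio of the 30 genes was -0.65 and it was -1.29 among the 20 at 1 FPKM or more in both precipitates, where all such genes in the table had -0.78. Relative to the median gene it turned to 0.14 over all 30, and it was -0.23 over the 26 genes of J-domain proteins, whose median on the deposited scale was -1.02.

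**Figure D4:**
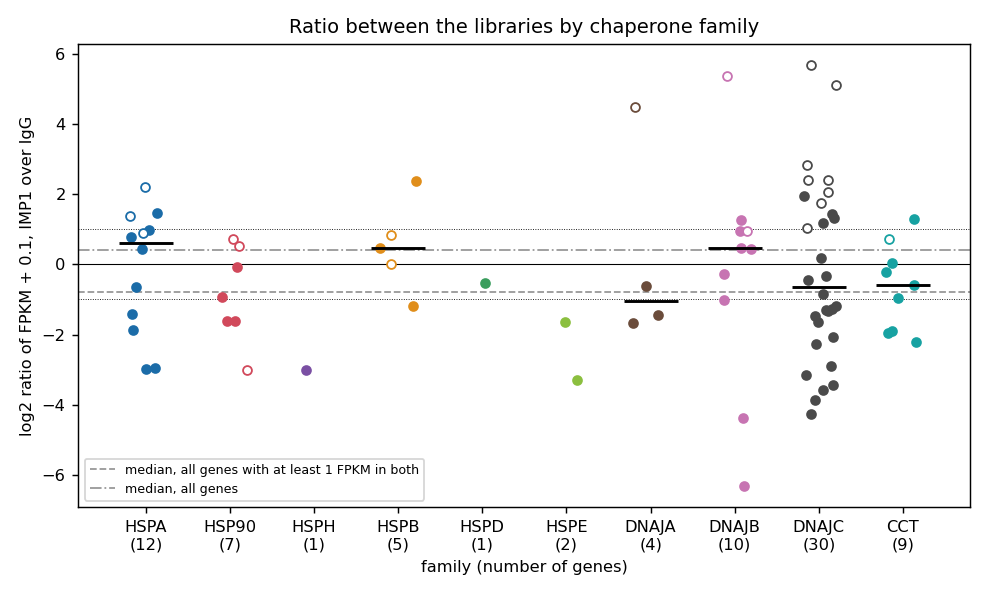
Log2 ratio of FPKM + 0.1, IMP1 library over IgG library, for each of the 81 genes by family. Open points are genes listed at 0 in a library, black bars the medians of the families HSPA, HSPB, DNAJA, DNAJB, DNAJC and CCT, dotted lines a 2-fold difference and grey lines the medians of all genes (0.40) and of all genes at 1 FPKM or more in both (-0.78). Genes of 1 family lie on both sides of 0, most widely in DNAJB and DNAJC. On the deposited scale the medians of HSPA, HSPB and DNAJB are above 0 and those of DNAJA, DNAJC and CCT below it. The median of HSPA turns to -0.63 without the genes listed at 0, and those of DNAJC, CCT and DNAJA turn positive on 1 or more of the rescaled comparisons.

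By summed FPKM, HSPB (369 and 260 FPKM) was higher with the IMP1 antibody and HSPA (421 and 522 FPKM), DNAJB (85.9 and 112 FPKM), CCT (158 and 305 FPKM), DNAJC (120 and 256 FPKM), DNAJA (24.6 and 59.7 FPKM) and HSP90 (83.6 and 199 FPKM) were lower on the deposited scale. Summed over all 81 genes the log2 ratio was -0.50, while the sum over all genes of the table had -1.88. On the scale of equal sums the sign of every one of these lower family sums would therefore turn. The sum over all genes is weighted by the highest of them, since 1 gene alone had 395449 of the 1298360 FPKM with IgG. On the scale without the 50 highest genes the log2 ratio summed over the 81 genes was 0.037. The order of the 7 families by the ratio of their sums, HSPB, HSPA, DNAJB, CCT, DNAJC, HSP90 and DNAJA from highest to lowest, is the same on every scale. The place of HSPA rests on HSPA8, without which the HSPA sums were 89.4 and 274.9 FPKM, a log2 ratio of -1.62 and the lowest of the 7. Without HSPB1 the HSPB sums were 20.2 and 9.90 FPKM. Most of that IMP1 value was HSPB11, the cilia transport subunit, with 17.2 and 3.23 FPKM. HSPB8, with 2.88 and 6.67 FPKM, was lower, so the place of HSPB rests on HSPB1 and HSPB11. With 1 library per condition, no neighbours in this order can be said to differ.

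Grouped by role, the heat-inducible genes were not of one kind. HSPA6, of a list of 12, was not analysed here. Of the 11 analysed, 2 were at least 2-fold higher (DNAJB1 and DNAJA4), 4 at least 2-fold lower (HSP90AA1, HSPE1, HSPA4L and HSPH1) and 5 within 2-fold, with a median log2 ratio of 0.42. That median is the ratio of HSPA8, which the list holds although it encodes the constitutive HSC70. Without HSPA8 the median would lie between the ratios of HSPD1 (-0.55) and HSPB1 (0.48). Of 8 constitutive cytosolic genes, 2 were higher (HSPA14 and HSPA2, the latter listed at 0 with IgG) and 5 lower, with a median of -1.10. Over all genes 39.9% were higher and 29.9% lower, or 11.5% and 44.0% at 1 FPKM or more in both, as 9 of the 11 and 7 of the 8 were. HSF1, the factor that drives the heat shock genes, had 7.37 FPKM with the IMP1 antibody and 30.7 FPKM with IgG, and its relative HSF2 had 0.842 and 1.75 FPKM. HSF4 had 0.548 FPKM and was listed at 0 with IgG.

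Grouped by place, 0 of 12 listed genes of the endoplasmic reticulum were at least 2-fold higher and 7 were lower, with a median of -1.31. The list leaves out DNAJC14, also of the endoplasmic reticulum membrane, which was higher, with 11.3 and 2.83 FPKM and a log2 ratio of 1.95. The 0 therefore holds for the listed genes only. Of these, DNAJB9, DNAJB11 and DNAJB14 had ratios above 0. DNAJB14, at 2.02 times in plain FPKM, passed 2-fold with a pseudocount of 0.01. Of 9 mitochondrial genes, 2 were higher and 4 were lower, with a median of -0.63. Of 5 genes of the nucleus or ribosome, 1 was higher and 3 were lower, with a median of -1.65. HSPA14, also ribosome-associated, was placed among the constitutive cytosolic genes instead and was higher, with a log2 ratio of 1.48. Of 5 genes of endocytosis, synaptic vesicles or neurons, 4 were higher, of which 3 were listed at 0 with IgG, and DNAJC13 was lower. These shares stand beside 39.9% higher and 29.9% lower among all genes, or 11.5% and 44.0% where both libraries have at least 1 FPKM, as all but 1 of the genes of the endoplasmic reticulum do. Relative to the median gene the median of that group was -0.53 and 3 of the 12 were higher and 3 lower.

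The partners of these chaperones also went both ways. Of 12 relatives and cochaperones of HSP90, 4 were at least 2-fold higher and 6 lower, with a median of -0.90, where 39.9% of all genes were higher and 29.9% lower. At 1 FPKM or more in both, 2 of 10 were higher and 6 lower, where 11.5% and 44.0% of all genes were. CDC37, which brings kinases to HSP90, had 12.3 and 4.25 FPKM, FKBP4, a partner of steroid receptors, had 37.98 and 17.9 FPKM, and STUB1, a ubiquitin ligase that acts with chaperones, had 13.6 FPKM and was listed at 0 with IgG. On the other side PPID, another partner of steroid receptors, had 1.72 and 27.0 FPKM and FKBP5 had 3.57 and 15.7 FPKM. PTGES3 (p23), a late cochaperone of HSP90, was the highest of the list with 54.1 and 121 FPKM. Of 11 exchange factors and regulators of HSP70, 2 were higher and 5 lower, and at 1 FPKM or more in both 0 of 8 were higher and 4 lower, against the same shares of all genes. BAG3, a heat-inducible member, had 1.97 and 0.668 FPKM, HSPBP1 had 3.44 FPKM and was listed at 0 with IgG, and BAG5 had 3.31 and 27.8 FPKM. HYOU1, the HSP110 of the endoplasmic reticulum, had 16.3 and 45.5 FPKM, a log2 ratio of -1.47. Of these partners BAG3 and HYOU1 were named by rule, and the others after their values were seen.

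Prefoldin hands actin and tubulin to CCT. Of the 7 genes of prefoldin and TCP1, 0 were at least 2-fold higher and 3 were lower, with a median log2 ratio of -0.80. Of 10 genes of folding in the endoplasmic reticulum, 2 were higher and 3 lower. The genes of both lists were at 1 FPKM or more in both, where 11.5% of all genes were higher and 44.0% lower with a median of -0.78, so that the prefoldin group was near the rest. The 2 higher were CALR (calreticulin), with 275 FPKM with the IMP1 antibody and 118 FPKM with IgG, and P4HB (a protein disulfide isomerase), with 221 and 66.4 FPKM, and they were the highest of that list in the IMP1 library. HSP90B1, HYOU1 and ERO1L were lower. CALR and P4HB, also named after their values were seen, thus had log2 ratios of 1.21 and 1.74, where HSPA5 and HSP90B1 of the same compartment had -1.42 and -2.44, an order that rescaling leaves as it is.

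**Figure D5:**
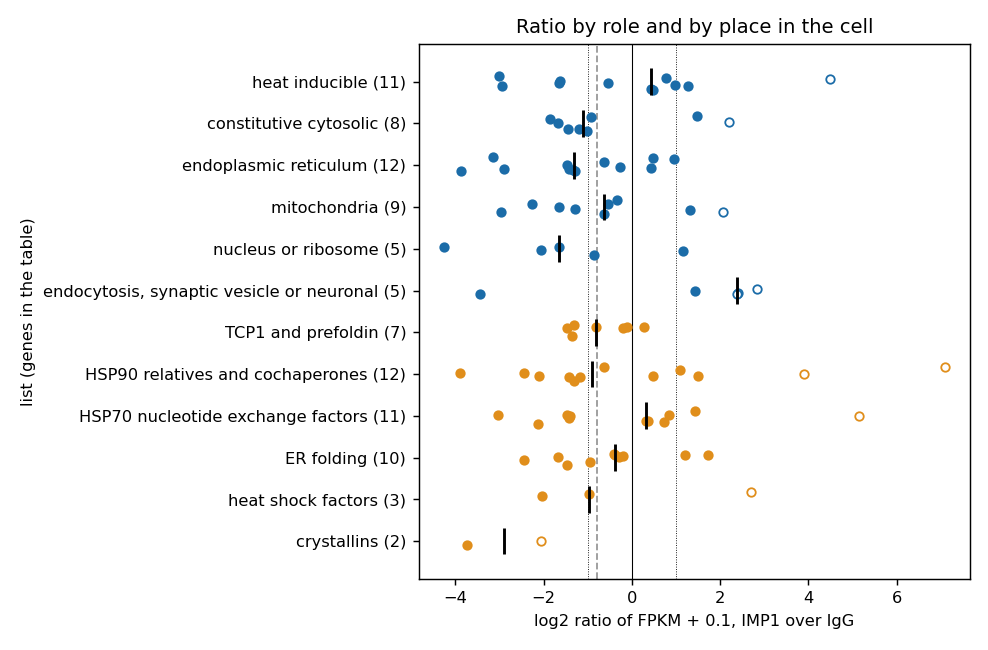
Log2 ratio of FPKM + 0.1, IMP1 library over IgG library, for lists of chaperone genes by role or place (blue) and of related genes (orange), with the number of genes in the table in brackets. Open points are genes listed at 0 in a library, black bars the medians, dotted lines a 2-fold difference and the dashed line the median of all genes at 1 FPKM or more in both (-0.78). Most lists span both sides of 0. None of the 12 listed genes of the endoplasmic reticulum is past 2-fold higher in this ratio, although DNAJB14 is in plain FPKM (2.02 times). DNAJC14, also of the endoplasmic reticulum membrane, is not in that list and had a log2 ratio of 1.95.

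The threshold of 2-fold divides genes with nearly equal ratios. HSPA1A (0.98), DNAJB7 (0.96) and CCT5 (-0.95) lay just inside it, and DNAJB6 (-1.02), DNAJC27-AS1 (1.05) and DNAJC9 (1.17) just outside. Names that end in P and digits are not among the 81 genes and hold 12 pseudogenes and HSPBAP1. HSPB1P1, a copy of HSPB1, had 13.9 and 14.0 FPKM, DNAJC19P5 had 1.35 FPKM and was listed at 0 with IgG, and another 9 pseudogenes were under 1 FPKM in both libraries. HSPE1P2 was listed at 0 with the IMP1 antibody and had 2.35 FPKM with IgG. Reads of near-identical copies can be assigned to either, so that the values of HSPB1 and HSPE1 are uncertain to this extent. The locus column of the table often joins neighbouring genes, and 36 of the 81 genes share their interval with another gene.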

How the data were processed

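RNA that came down with an antibody against IMP1 or with normal IgG was sequenced from T47D cells, 1 library each. The deposited table gives FPKM per gene, which the authors computed from their reads with loci on hg19, the build in the submitters' processing notes. The aligner, the quantification tool, their versions, strand use and the depth are not given in the sources used here. An FPKM deposited as 1e-05 was read as 0. The fold change, p-value and q-value columns hold the authors' own comparison and were not used.

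The log2 ratio was log2 of (FPKM + 0.1) with the IMP1 antibody over the same with IgG, taken over all 18781 genes with no filter, and a gene counted as higher or lower past 2-fold. No test or p-value was possible with 1 library per condition, and counting error cannot be given without depth. Antibody and library cannot be told apart. Alternatives were pseudocounts of 1 and 0.01, a set of 3 filters on low FPKM, 3 rescalings of the IMP1 values (by 0.79, 0.54 and 1.88 on the log2 scale, for the median gene, the sum without the 50 highest genes and the whole sum), a threshold of 4-fold and leaving out antisense, readthrough and pseudogene names. Start positions of the loci had 1 added.

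The members and lists were chosen with earlier results of these data known. Named by rule were the CCT genes, 12 central chaperones, genes at 50 FPKM or more, the largest and smallest ratio of the families HSPA, HSPB, DNAJA, DNAJB and DNAJC among genes at 1 FPKM or more in both, genes at 1 FPKM or more in 1 library and listed at 0 in the other, and 7 related genes. Values of the other genes are given so that every member is accounted for. Promoters came from RefSeq (GRCh38.p14) and were matched by symbol. The scripts were tested on simulated data, where 100% of 200 changed genes among 18781 were recovered. There 1 library was a scaled copy of the other without noise, and the changes were larger than the threshold. Calls were made after rescaling to the median gene. Full recovery therefore checks the code and says nothing about the calls in these data. The tools were numpy 2.4.6, pandas 2.3.3 and matplotlib 3.10.9 under Python 3.11.15.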

Additional observations from a re-analysis of the deposited data

How the results depend on the processing

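The 20 chaperone genes past 2-fold higher turned into 11 with a pseudocount of 1, 13 with at least 0.5 FPKM in a library, 8 for genes above 0 in both or at 1 FPKM or more in both, 32 relative to the median gene, 45 with equal sums and 10 at 4-fold. The count lower, 33, became 20 relative to the median gene, 13 with equal sums and 16 at 4-fold. The median over the chaperone genes, -0.45, became -1.18 above 0 in both, 0.25 relative to the median gene, 0 with the sum without the 50 highest genes and 1.33 with equal sums. The summed ratio, -0.50, became 0.30, 0.037 and 1.38 on those 3 scales. In the same order of scales the family medians became 1.27, 1.07 and 2.18 for HSPA, 1.25, 1.02 and 1.97 for HSPB and -0.25, -0.50 and 0.82 for DNAJA. Relative to the median gene and with equal sums they were 1.24 and 2.23 for DNAJB, 0.14 and 1.22 for DNAJC and 0.21 and 1.29 for CCT. With filters the HSPA median was -0.63 under each of the 3, and that of DNAJC was -1.28, -1.31 and -1.29. A pseudocount of 1 moved DNAJA to -0.93. With equal sums the ratios of DNAJA1 (0.20), DNAJB6 (0.85), HSP90AA1 (0.24), HSPA5 (0.45), HSPB8 (0.66), HSPE1 (0.23), HYOU1 (0.39) and TRAP1 (0.45) turned positive. These genes were at least 2-fold lower on the deposited scale. Named genes below 0 but within 2-fold there also turned positive. They were CCT2 (1.29), CCT4 (1.65), CCT5 (0.92), HSP90AB1 (0.96), HSPD1 (1.33), DNAJA3 (1.23) and TCP1 (1.77). Filters act by leaving out genes. Rescaling raises every log2 ratio with an IMP1 value above 0, by less for low genes and not at all for genes listed at 0 there, and which scale is right was not tested. Of the alternative values for counts, medians and sums, 45 stayed, 38 moved and 1 reversed, and of those for single genes 141 stayed, 51 moved and 8 reversed. The count of reversed values does not hold every change of sign. Among those counted as moved, the chaperone median, the summed ratio and the medians of HSPA, DNAJC and CCT changed sign under some settings. So did single genes within 2-fold on the deposited scale, such as CCT2. No replicate exists that could have been left out. No paired analysis was possible because each group is a single library. FPKM without counts gives no depth, so values listed at 0 set no limit.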
